A study of Mus musculus with 6 samples.

Results

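The mouse stomach is lined by 2 kinds of epithelium, and 40 genes of the squamous kind, which covers the forestomach, are described here. The 40 were taken by symbol from a list of keratinocyte keratins, desmosome parts, cornified envelope proteins, transglutaminases, secreted suprabasal proteins and gasdermins. All 40 were found among the 23550 genes of the deposited table, and 34 of them were among the 11738 genes that were abundant enough to test. RNA was sequenced from whole stomach in 6 libraries of mice. Mice of 3 libraries (replicates 1, 2 and 4) had been given saline by gavage, and mice of the other 3 (replicates 2, 3 and 4) had been given 20 mg per kg of Riclin, a soluble dietary fibre, by gavage for 14 days. The saline label carries the same 20 mg per kg. The sources used here give neither the strain, sex and age of the animals nor whether they also received ethanol, as mice in another experiment of the study did. The comparison belongs to the study's question of how Riclin acts on the barrier of the gastric mucosa.

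The forestomach of rodents is a pouch with a stratified, cornified lining, built in the manner of epidermis. Cells divide in a basal layer marked by the keratins Krt5 and Krt14 and the transcription factor Trp63. As they move upward they switch to other keratins (Krt1 and Krt10 in cornifying epithelium, Krt4 and Krt13 in mucosal squamous epithelium), knit themselves together with desmosomes, and load the proteins of the cornified envelope. Transglutaminases then cross-link those proteins into the shell of the dead surface cell. The glandular stomach beside it is a simple epithelium with its own keratins (Krt8, Krt18, Krt19). Some genes of the set, named below, are made by simple epithelium too. In a whole-stomach library, transcripts confined to squamous cells come largely from 1 region of the organ. In bulk RNA, fewer squamous cells and less of these RNAs per cell cannot be told apart.

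The libraries held 30884067 to 40050267 reads, a range of 1.30-fold. Squamous markers were present in all 6, and glandular markers were far more abundant. The parietal cell gene Atp4a measured 1273 to 2245 FPKM (sequenced fragments scaled by the length of the gene and the size of the library) and the simple keratin Krt8 measured 1260 to 1812 FPKM. Of 11 hair follicle and skin genes 4 were in the table, none above 0.0697 FPKM. The skeletal muscle myosins Myh1, Myh2, Myh4 and Myh8 did not exceed 0.0662 FPKM, although the muscle enzyme Ckm measured 5.76 to 9.34 FPKM. Some libraries stood apart in other lists. The summed FPKM of 20 pancreatic acinar genes was 34270, 141052 and 132378 in the saline libraries, here and throughout in the order of replicates 1, 2 and 4. It was 95331, 133 and 90210 in the Riclin libraries, in the order of replicates 2, 3 and 4. Gast, the gastrin gene of the antrum, measured 1037, 676 and 943 FPKM in saline and 420, 389 and 2.62 FPKM in Riclin. Its groups did not overlap, it was highest in saline replicate 1 and lowest in Riclin replicate 4, and its log2 fold change was -3.37 (limma adjusted p = 0.823). The acinar genes were removed and the libraries rescaled in 1 alternative fit, whose counts are given below. The part of these differences in the squamous values was otherwise not tested.

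The squamous genes were lowest in 1 saline library, and the remaining 5 libraries lay closer together. Reads of the 40 genes made up 0.0859% of all reads in saline replicate 1 (95% Wilson interval 0.0850 to 0.0868%, which covers counting error only). They made up 0.264% and 0.178% in the other saline libraries and 0.268%, 0.284% and 0.223% in those of Riclin. Saline replicate 2 was thus inside the Riclin range, saline replicate 4 under it, and saline replicate 1 lowest. The means were 0.176% ± 0.0891 for saline (SD, n = 3) and 0.258% ± 0.0312 for Riclin (SD, n = 3), a difference smaller than the saline SD. Left without the 5 genes that simple epithelium also makes (Perp, Pkp3, Ppl, Evpl and Sfn), Sprr1a and Serpinb5, 33 genes took 0.0393%, 0.213% and 0.124% of saline reads and 0.219%, 0.231% and 0.175% of Riclin reads. Their share spanned 5.41-fold within saline and 1.32-fold within Riclin. Sprr1a and Serpinb5 were set aside after their values were seen.

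**Figure D1:**
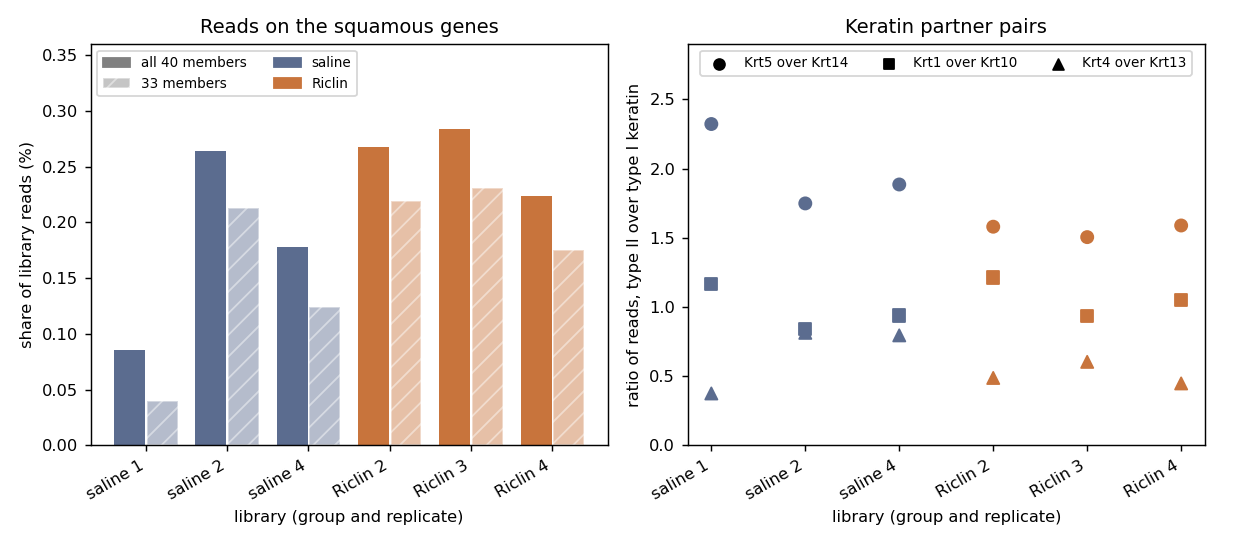
Left, the share of each library's reads (%) on all 40 squamous genes (solid bars) and on 33 of them (hatched bars), for each saline (blue) and Riclin (orange) library. Right, the ratio of reads of a type II keratin over its type I partner in the same libraries. Saline replicate 1 has the lowest share at 0.0859%. Krt5 over Krt14 is 1.75 or more in each saline library and 1.59 or less in each Riclin library. Krt1 over Krt10 and Krt4 over Krt13 overlap between the groups, and the pairs were picked after their values were seen.

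No squamous gene differed between Riclin and saline past an adjusted p of 0.05 by limma with Benjamini-Hochberg adjustment over all 11738 genes. The share of all genes called was 0%, and limma's voom on read numbers also called 0. The smallest adjusted p among the 34 was 0.69, for Krt17. At an unadjusted limma p under 0.05 there were 10 of the 34, against 5.9% of all genes. All 10 were higher in Riclin (Krt14, Krt15, Krt13, Krt78, Krt6a, Krt17, Rptn, Tgm1, Anxa8 and Gsdma), a direction with 4.07% of all genes, and none was lower, against 1.83%. The count was 5 under median-of-ratios or upper-quartile scaling (7.94% and 7.70% of all genes) and 4 with the acinar genes removed (7.57% of all genes). It was 5 without saline replicate 1 (7.16% of all genes) and 23 without saline replicate 2 (6.44% of all genes).

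In direction, 29 of the 34 had a log2 fold change above 0, against 61.3% of all genes. Their median log2 fold change on the log2(FPKM + 1) scale was 0.72, beside 0.04 over all genes tested. A fold change of at least 1 on that scale was reached by 9, against 0.511% of all genes. Without saline replicate 1 it was reached by 0 (0.311% of all genes), and without saline replicate 2 by 19 (1.02% of all genes). In 5 (Krt14, Krt6a, Krt17, Tgm1 and Gsdma) every Riclin library lay above every saline library, against 8.14% of all genes, and no member had the opposite order. With either order the share of all genes was 11.2%. Without saline replicate 1 the groups did not overlap in 5 of the 34, against 26.6% of all genes. The median was 0.29 without saline replicate 1 and 1.03 without saline replicate 2. Of the 34, 8 passed the filter of 1 FPKM in 3 libraries with all 3 Riclin libraries but not all 3 saline ones, so these counts are a description of the set.

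**Figure D2:**
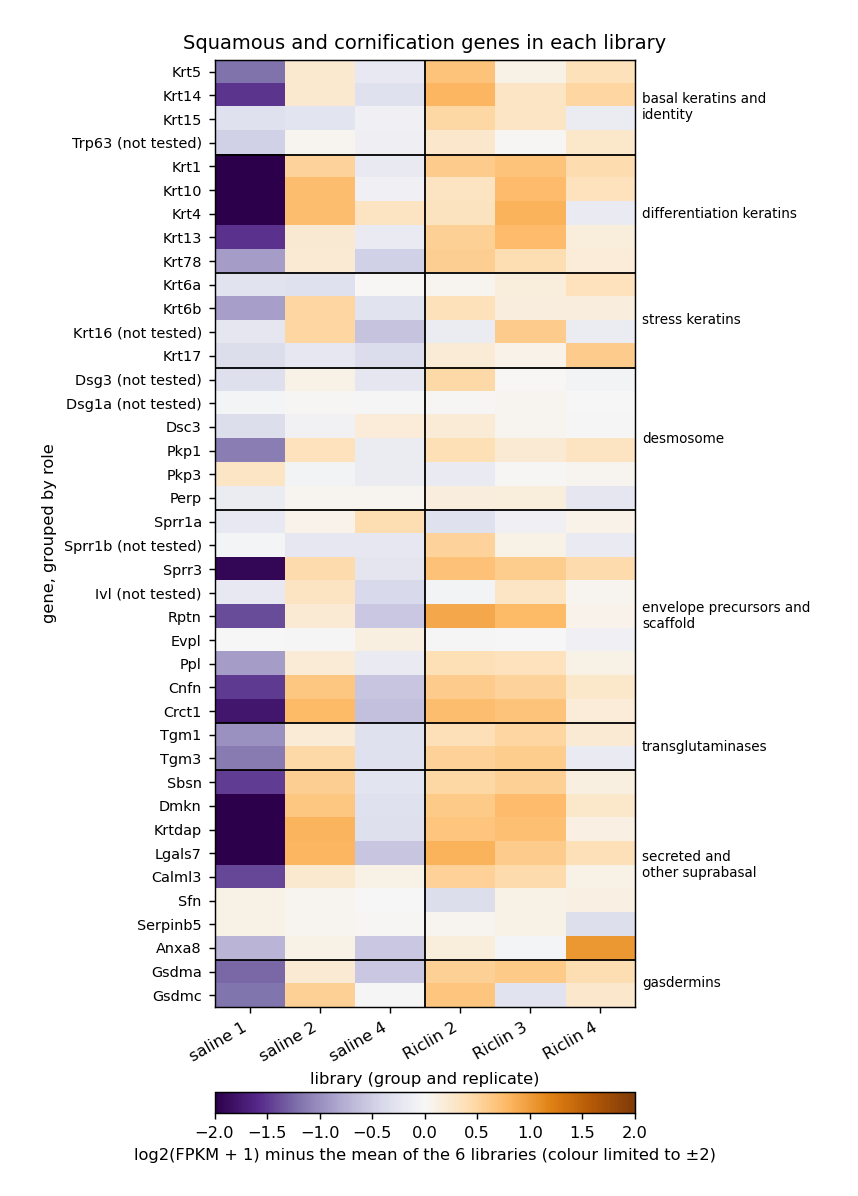
Level of each of the 40 genes (rows, grouped by role) in each library (columns), as log2(FPKM + 1) minus the gene's mean over the 6 libraries; the colour bar gives the scale. The saline replicate 1 column is low for most rows, while Pkp3, Perp, Sprr1a, Evpl, Sfn and Serpinb5 differ little between columns.

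The basal layer genes were the first of the layers described above. Krt5, the type II keratin of basal cells, measured 10.8, 30.8 and 22.6 FPKM in saline and 41.9, 27.8 and 33.6 FPKM in Riclin. Saline replicate 2 was above Riclin replicate 3, so the groups overlapped. Its log2 fold change was 0.76 (SE 0.341, limma adjusted p = 0.82), or 0.35 without saline replicate 1. Krt14, the type I partner of Krt5, measured 5.95, 22.6 and 15.3 FPKM in saline and 34.0, 23.7 and 27.1 FPKM in Riclin. Here the groups did not overlap, although saline replicate 2 and Riclin replicate 3 were almost level. The mean was 1.93-fold higher in Riclin and the log2 fold change 1.06 (SE 0.402, limma adjusted p = 0.791), or 0.56 without saline replicate 1. Trp63, the factor that maintains squamous stem cells, was under the filter at 48, 172 and 114 reads in saline and 247, 187 and 258 reads in Riclin. Its lowest library was saline replicate 1, as for Krt5 and Krt14. Krt15, another basal type I keratin, was flat in saline at 2.42, 2.53 and 2.96 FPKM and measured 4.85, 4.21 and 2.78 FPKM in Riclin. Saline replicate 1 was its lowest library too, though by less, since the mean of the other 5 was 1.43-fold that library. The Krt15 groups overlapped. Krt14 lies on chromosome 11 from 100203162 to 100207548 and Krt5 on chromosome 15 from 101707070 to 101712898 (GRCm38), each within a cluster of type I or type II keratin genes.

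Among the keratins of differentiating cells all 5 had a log2 fold change above 0, from 0.67 to 1.15, and saline replicate 1 was lowest in all 5. Krt1 measured 20.7, 129 and 79.2 FPKM in saline and 137, 145 and 122 FPKM in Riclin. Riclin replicate 4 alone lay under the highest saline library. The log2 fold change was 1.15 (SE 0.57, limma adjusted p = 0.823), or 0.40 without saline replicate 1. Krt10, the partner of Krt1, measured 4.12, 35.7 and 19.6 FPKM in saline and 26.2, 35.9 and 26.9 FPKM in Riclin, with saline replicate 2 level with the highest Riclin library. The FPKM of Krt10 rests on a gene length of 10555 bases implied by the values, 4.99 times its 2114 exon bases in GENCODE M21. Its level per length is therefore understated beside Krt1, whose implied 2447 bases are 0.554 times its 4415 exon bases. The reads of Krt10, 1692 to 15196, were close to the 1970 to 14193 of Krt1. Krt13, the mucosal type I keratin, measured 32.3, 112 and 85.4 FPKM in saline and 141, 162 and 107 FPKM in Riclin (log2 fold change 0.98, SE 0.42, limma adjusted p = 0.82, or 0.46 without saline replicate 1). Krt4, its type II partner, measured 9.85, 74.3 and 55.3 FPKM in saline and 55.8, 79.8 and 39.2 FPKM in Riclin. In Krt4 the lowest Riclin library was under both saline replicates 2 and 4, and without saline replicate 1 the log2 fold change turned from 0.67 to -0.19. Krt78, a type II keratin, spanned the least of the 5 over the 6 libraries (2.53, 6.57 and 3.71 FPKM in saline, 8.71, 7.80 and 6.48 FPKM in Riclin), and its log2 fold change was 0.53 without saline replicate 1.

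Keratins act as pairs of a type I and a type II chain, and the read ratios of some pairs spanned less than their levels. The 3 pairs were picked after their values were seen. Krt1 over Krt10 was 1.16, 0.840 and 0.938 in saline and 1.21, 0.934 and 1.05 in Riclin, a range of 1.44-fold over libraries in which Krt1 reads spanned 7.20-fold and Krt10 reads 8.98-fold. Krt5 over Krt14 was 2.32, 1.75 and 1.88 in saline and 1.58, 1.50 and 1.59 in Riclin. Its groups did not overlap, and the highest ratio was in saline replicate 1. Krt4 over Krt13 was less steady, at 0.374, 0.812 and 0.794 in saline and 0.487, 0.603 and 0.447 in Riclin. Saline replicates 2 and 4 had the 2 highest values of this pair and saline replicate 1 the lowest. Reads of Krt14 may be shared with its close relatives Krt16 and Krt17, which makes that ratio uncertain.

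Of the roles, the stress keratins, which keratinocytes raise on wounding, followed the low library least in median. Krt6b did follow it. Krt17 measured 3.28, 3.66 and 3.19 FPKM in saline and 5.13, 4.73 and 7.20 FPKM in Riclin, with no overlap. The 3 saline libraries lay close together, and saline replicate 4, not saline replicate 1, was lowest. The mean was 1.68-fold higher in Riclin. The log2 fold change was 0.59 (SE 0.147), with an unadjusted limma p of 0.00399 and an adjusted p of 0.69, and it was 0.58 without saline replicate 1. Krt6a was near the detection filter at 0.661, 0.639 and 1.02 FPKM in saline and 1.06, 1.25 and 1.55 FPKM in Riclin, which is 52 to 133 reads. It passed the filter with 1 saline library. Krt6b measured 0.918, 3.99 and 1.94 FPKM in saline and 3.57, 2.92 and 2.95 FPKM in Riclin, with its highest value in saline replicate 2. Saline replicate 1 was its lowest library, with the mean of the others at 3.34 times it. The log2 fold change of Krt6b was 0.44, or 0.11 without saline replicate 1. Krt16 was too low to test, at 15 to 124 reads, and its libraries did not order by group. Krt6a may share reads with Krt6b, and Krt16 and Krt17 with Krt14, so these levels are uncertain. Krt17 lies on chromosome 11 from 100256217 to 100261029.

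**Figure D3:**
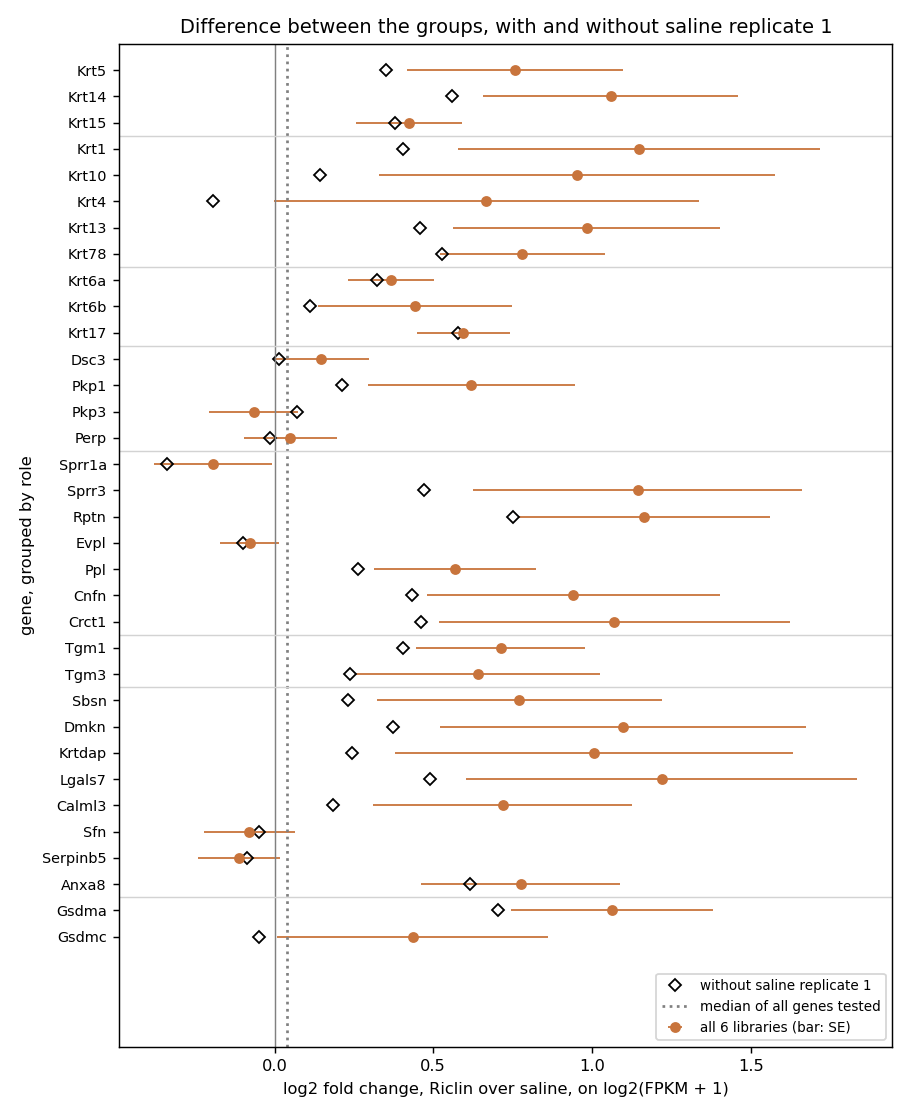
Log2 fold change of Riclin over saline on log2(FPKM + 1) for the 34 genes tested, grouped by role. Filled points are limma estimates from all 6 libraries with bars of 1 SE, open diamonds are estimates without saline replicate 1, and the dotted line is the median of all genes tested (0.04). Most diamonds lie left of their points, while Krt17 (0.59 and 0.58), Krt15 and Krt6a moved little.

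Desmosomes hold neighbouring cells together, and 6 of the genes encode parts of them. Pkp1, the plakophilin of stratified epithelium, measured 1.15, 4.97 and 3.21 FPKM in saline and 5.20, 4.41 and 4.85 FPKM in Riclin. Saline replicate 1 was far under the other 5 libraries, which overlapped (log2 fold change 0.62, or 0.21 without saline replicate 1). Pkp3 and Perp, which simple epithelium also makes, were flat. Pkp3 measured 15.7 to 21.9 FPKM in saline and 15.6 to 18.0 FPKM in Riclin, and Perp 78.6 to 103 FPKM over all 6 libraries. Their log2 fold changes were -0.07 and 0.05, and that of Perp turned to -0.004 when acinar genes were removed and libraries rescaled. The squamous cadherins were scarce. Dsc3 measured 0.648 to 1.38 FPKM (log2 fold change 0.15, or 0.01 without saline replicate 1), Dsg3 65, 128 and 62 reads in saline and 214, 124 and 104 reads in Riclin, and Dsg1a only 5 to 19 reads. Dsg1a may share reads with Dsg1b and Dsg1c. These 3 cadherin genes lie together on chromosome 18 between 19960930 and 20547459.

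Precursors of the cornified envelope come next, and 6 of the members lie in the epidermal differentiation complex, between 92436809 and 93399442 on chromosome 3. Sprr3, a small proline-rich protein cross-linked into the envelope, measured 16.8, 90.6 and 55.6 FPKM in saline and 107, 100 and 90.0 FPKM in Riclin. Riclin replicate 4 and saline replicate 2 were nearly level and saline replicate 1 was lowest (log2 fold change 1.14, SE 0.519, limma adjusted p = 0.82, or 0.47 without saline replicate 1). Rptn, repetin, a calcium-binding precursor of the envelope, measured 6.44, 21.9 and 12.4 FPKM in saline and 36.1, 32.6 and 19.6 FPKM in Riclin. Its mean was 2.17-fold higher in Riclin, with overlap between saline replicate 2 and Riclin replicate 4, and its log2 fold change of 1.16 (SE 0.397, limma adjusted p = 0.788) was 0.75 without saline replicate 1. Cnfn and Crct1, a cornified envelope protein and a cysteine-rich protein, measured 10.2 to 48.0 and 9.47 to 59.6 FPKM in saline and 37.1 to 46.6 and 39.0 to 58.2 FPKM in Riclin. Ppl, periplakin, a scaffold under the envelope, measured 2.20, 5.82 and 4.32 FPKM in saline and 6.86, 6.55 and 5.38 FPKM in Riclin. Although it is among the genes that simple epithelium also makes, it had the low saline replicate 1. Evpl, envoplakin, its partner, did not, at 6.20 to 7.02 FPKM in saline and 5.89 to 6.24 FPKM in Riclin.

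Sprr1a did not have the low saline replicate 1 of Sprr3 and Rptn. It measured 128, 155 and 195 FPKM in saline and 120, 138 and 156 FPKM in Riclin, with a log2 fold change of -0.19 (SE 0.185, limma adjusted p = 0.899). Saline replicate 1 was inside the Riclin range. Its near neighbour Sprr1b, on the same strand, was almost silent, with 4, 0 and 0 reads in saline and 21, 8 and 1 reads in Riclin. A count of 0 allows up to 3 reads, or 0.0971 and 0.113 FPKM in saline replicates 2 and 4. Reads of the 2 genes may be shared where their sequences agree. Ivl, involucrin, an early envelope protein, had 15, 52 and 2 reads in saline and 24, 56 and 31 reads in Riclin, too few to test.

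RefSeq promoter windows were found for 20 of the 40 genes, 24 windows in all, each from 250 bases before to 50 after a transcription start on GRCm38.p6. The TATA box TATAAA on either strand was in 8 of the 24 (33.3%), against 13.6% of all 32851 windows. On the gene strand and 20 to 40 bases before the start it was in 7 (Ivl, Krt10, Krtdap, Rptn, Sprr1b, Sprr3 and Tgm3), or 29.2% against 1.99%. The AP-1 motif TGANTCA, whose complement is the same letters, was in 12 windows of 9 genes (50% against 7.81%). The 9 were Dmkn, Ivl, Krt13, Krtdap, Rptn, Sbsn, Serpinb5, Sprr1a and Sprr1b. The C/EBP motif TTGCNNAA, on either strand, was in 7 windows of 5 genes (29.2% against 10.8%), the GRHL motif AACCNGTT in 2 (8.33% against 2.09%), and the KLF motif GGGNGTGG in 3 (12.5% against 17.6%). Dmkn gives 3 of the windows for AP-1 and for C/EBP, of which 2 lie 2 bases apart and hold the same site, so windows are not independent. The p63 motif, 2 CATG cores 6 bases apart, was in none, against 0.712% of all windows. Each motif was counted on its own, so matches of different motifs may overlap, and a match of letters is not a shown binding site.

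The windows of 6 genes are shown for 2 contrasts: Sprr1a against its near-silent neighbour Sprr1b, and Rptn, Sbsn, Dmkn and Krtdap, which held the low saline replicate 1. Each runs 5′ to 3′ on the gene strand from 150 bases before to 10 after the RefSeq start, and capitals mark TATAAA and TGANTCA. The windows are chr3:92485872-92486031 (minus strand) for Sprr1a, chr3:92438770-92438929 (minus strand) for Sprr1b, chr3:93393549-93393708 (plus strand) for Rptn, chr7:30751321-30751480 (plus strand) for Sbsn, chr7:30763606-30763765 (plus strand) for Dmkn and chr7:30787755-30787914 (plus strand) for Krtdap, all on GRCm38.p6.
Sprr1a: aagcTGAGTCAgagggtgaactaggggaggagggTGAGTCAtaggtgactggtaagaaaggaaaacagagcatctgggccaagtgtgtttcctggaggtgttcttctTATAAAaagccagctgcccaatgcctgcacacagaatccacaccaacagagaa
Sprr1b: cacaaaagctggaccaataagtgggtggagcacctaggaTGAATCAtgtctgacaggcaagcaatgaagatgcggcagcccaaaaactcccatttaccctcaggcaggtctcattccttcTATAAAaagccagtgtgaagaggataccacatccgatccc
Rptn: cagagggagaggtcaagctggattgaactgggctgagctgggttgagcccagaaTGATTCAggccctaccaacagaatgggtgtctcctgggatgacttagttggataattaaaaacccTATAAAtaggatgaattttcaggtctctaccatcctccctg
Sbsn: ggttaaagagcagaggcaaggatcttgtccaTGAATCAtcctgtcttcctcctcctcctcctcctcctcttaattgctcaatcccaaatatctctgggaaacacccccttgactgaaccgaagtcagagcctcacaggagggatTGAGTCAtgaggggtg
Dmkn: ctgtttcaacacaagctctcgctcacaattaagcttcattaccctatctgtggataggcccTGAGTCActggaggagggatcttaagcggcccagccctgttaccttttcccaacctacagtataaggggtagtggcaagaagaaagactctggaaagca
Krtdap: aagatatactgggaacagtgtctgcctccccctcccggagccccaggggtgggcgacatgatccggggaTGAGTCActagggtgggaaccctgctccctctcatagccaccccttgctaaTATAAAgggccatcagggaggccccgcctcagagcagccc
Both Sprr1 windows hold TATAAA and TGANTCA, although Sprr1a had 3545 to 4762 reads in a library and Sprr1b at most 21. TATAAA begins 43 bases before the start in Sprr1a and 30 before it in Sprr1b, and TGANTCA is present 2 times in Sprr1a and 1 time in Sprr1b. Rptn and Krtdap had the low saline replicate 1 and Sprr1a did not, and each of these genes holds both motifs. Sbsn and Dmkn also had the low saline replicate 1, and their windows hold TGANTCA but no TATAAA. Whether either motif bears on the pattern was not tested.

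Sbsn, Dmkn and Krtdap encode secreted proteins of suprabasal keratinocytes (suprabasin, dermokine and keratinocyte differentiation-associated protein) and lie in line within 39.6 kb of chromosome 7, from 30751471 to 30791097. Krtdap measured 56.2, 411 and 187 FPKM in saline and 366, 385 and 252 FPKM in Riclin. Dmkn measured 10.6, 71.5 and 36.8 FPKM in saline and 70.4, 77.1 and 54.9 FPKM in Riclin, and Sbsn 0.973, 7.15 and 3.55 and 6.61, 7.02 and 4.96 FPKM. In all 3 genes saline replicate 1 was lowest, saline replicate 4 next, and Riclin replicate 4 lowest of its group. The mean of the other 5 libraries was 5.70 to 6.02 times saline replicate 1. Log2 fold changes were 1.01, 1.10 and 0.77, and 0.24, 0.37 and 0.23 without saline replicate 1. For Sbsn the values imply a length of 8567 bases, 2.36 times its exons in GENCODE M21, so its level per length is understated. For Krtdap the implied 462 bases are 0.68 times its 679 exon bases.

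Of the other suprabasal genes, Lgals7, a galectin of stratified epithelium, had the largest log2 fold change of the 34 with all libraries, at 1.22 (SE 0.617, limma adjusted p = 0.825). Without saline replicate 1 it was 0.49, under Rptn (0.75), Gsdma (0.71) and Anxa8 (0.62). It measured 22.8, 174 and 66.5 FPKM in saline and 178, 152 and 130 FPKM in Riclin, and saline replicate 2 lay within the Riclin range. Calml3, a calmodulin-like protein of epithelia, measured 1.93, 8.35 and 7.47 FPKM in saline and 10.5, 9.68 and 7.41 FPKM in Riclin. Anxa8, an annexin, measured 1.01, 2.52 and 1.22 FPKM in saline and 2.67, 2.19 and 5.74 FPKM in Riclin, so that 1 Riclin library stood above the other 5. Sfn, the 14-3-3 protein of epithelia, and Serpinb5, the serpin maspin, were flat, at 26.6 to 36.7 and 6.85 to 9.55 FPKM over all 6 libraries, with log2 fold changes of -0.08 and -0.11.

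Transglutaminases and gasdermins were low in level, and their values in saline replicate 1 were far under those of the other 5 libraries. Tgm1, the membrane-bound enzyme that cross-links the envelope, measured 0.675, 2.75 and 1.69 FPKM in saline and 3.27, 3.60 and 2.79 FPKM in Riclin, without overlap but with saline replicate 2 close to Riclin replicate 4. The log2 fold change was 0.71 (SE 0.266, limma adjusted p = 0.791), or 0.41 without saline replicate 1. Tgm3, a transglutaminase of late differentiation, measured 0.278, 2.84 and 1.28 FPKM in saline and 3.05, 3.19 and 1.50 FPKM in Riclin, with the other 5 libraries at 8.52 times saline replicate 1. Gasdermins form pores in membranes once cleaved. Gsdma measured 0.931, 4.30 and 2.13 FPKM in saline and 5.76, 6.05 and 5.15 FPKM in Riclin. Its groups did not overlap, its mean was 2.30-fold higher in Riclin, and its log2 fold change of 1.06 (SE 0.318, limma adjusted p = 0.751) was 0.71 without saline replicate 1. Gsdmc measured 0.421, 3.73 and 2.19 FPKM in saline and 4.14, 1.68 and 2.85 FPKM in Riclin, and its log2 fold change turned from 0.43 to -0.05 without saline replicate 1. Gsdmc may share reads with Gsdmc2 to Gsdmc4.

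The low level in saline replicate 1 was measured against all genes of that library. Saline replicate 1 was the lowest of the 6 libraries in 26 of the 34 genes, against 7.54% of all genes, and it was under a mean of the other 5 by more than 2-fold in 24 of 34, against 2.62%. The median ratio of the other 5 over saline replicate 1 was 3.83, whereas over all genes it was 0.951 with a 5th to 95th percentile of 0.728 to 1.39. Of all 40 genes 34 lay above that range and 6 within it (Pkp3, Perp, Sprr1a, Evpl, Sfn and Serpinb5). Those above include Krt6a, Krt16, Krt17, Sprr1b and Ivl, in which saline replicate 1 was not the lowest library. The range comes from tested genes only, and some untested members rest on few reads, such as Sprr1b with 4, 0 and 0 in saline. The ratio was 6.35 in median for the transglutaminases, 5.97 for the gasdermins, 5.91 for the differentiation keratins and 5.10 for the secreted group. It was 3.51 for the basal group, 2.63 for the envelope group, 1.94 for the desmosome group and 1.66 for the stress keratins. This comparison was made after the library was seen to be low, so the counts describe it and test nothing.

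**Figure D4:**
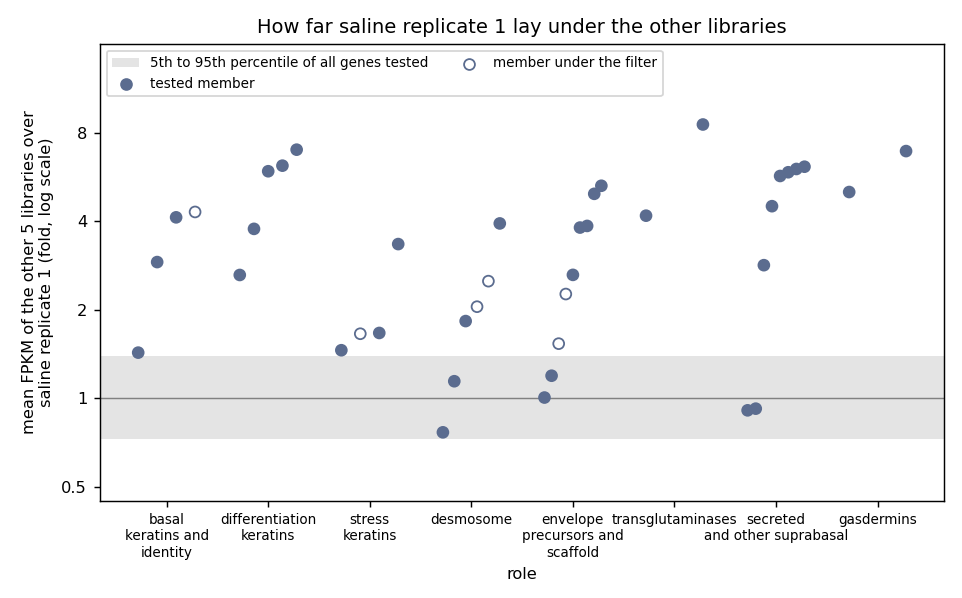
Mean FPKM of the other 5 libraries over saline replicate 1 (log axis) for each of the 40 genes, by role; open circles are genes under the filter and the grey band is the 5th to 95th percentile of all genes tested (0.728 to 1.39). Of the 40, 6 lie within the band and 34 lie above it. Those above include Krt6a, Krt16, Krt17, Sprr1b and Ivl, in which saline replicate 1 was not the lowest library.

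Marker lists of squamous epithelium and of other tissues were summed in the same way. The 9 squamous markers are all among the genes described above, so their sum repeats those values. Their summed FPKM was 84.5, 407 and 278 in saline and 439, 476 and 358 in Riclin, so the other 5 libraries averaged 4.64 times saline replicate 1. The same ratio was 0.995 for 7 smooth muscle genes, 0.980 for 6 fibroblast genes, 0.968 for 6 parietal genes, 0.684 for 6 surface mucous genes and 0.471 for the 2 antrum genes Gast and Pdx1, whose sum was highest in saline replicate 1. It was 2.68 for the acinar genes, whose lowest library was Riclin replicate 3, where the squamous sum was highest.

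**Figure D5:**
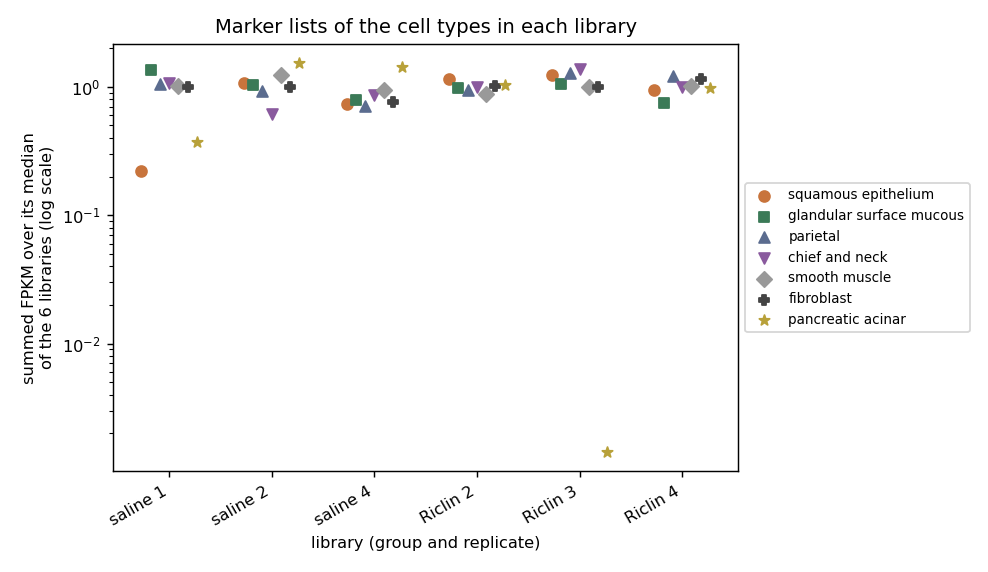
Summed FPKM of marker genes of 7 cell types in each library over the median of the 6 libraries (log axis). The squamous sum is lowest in saline replicate 1 at 84.5 FPKM, where smooth muscle and fibroblast sums are near their median. The acinar sum is lowest in Riclin replicate 3. The squamous markers are all members of the set described here.

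The spread between libraries was compared as well. The SD of log2(FPKM + 1) was larger in saline for 28 of the 34 genes, against 55.5% of all genes. Its median over the squamous genes was 0.742 in saline and 0.229 in Riclin, beside 0.151 and 0.135 over all genes. Saline replicate 1 was lowest in 26 of the 34 genes and enters the saline SD. The comparison of spread is therefore not separate from the low level of that library. The balance between layers was also compared, as log2 of the summed FPKM of differentiation keratins and envelope genes over that of the basal genes. It was 3.69, 3.72 and 3.76 in saline and 3.20, 3.86 and 3.35 in Riclin, a difference of -0.25 that is smaller than the Riclin SD of 0.344. The sign depends on how the ratio is built, since it was 0.21 with medians in place of sums and 0.14 without Sprr1a and the genes of simple epithelium. In that last form saline replicate 1 was the lowest library, at 2.54 against 2.92 to 3.56 in the others.

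Genes of related families and functions were taken as 119 companions in 9 lists, of which 88 were tested. The lists also hold genes not confined to squamous epithelium, such as Krt7 and Dsp, so the counts cover more than squamous genes. By limma none passed the adjusted threshold. At an unadjusted p under 0.05 there were 8 higher and 4 lower, and 67 of 88 had a log2 fold change above 0, with a median of 0.32. Of all genes, 4.07% were higher and 1.83% lower at an unadjusted p under 0.05. The shares over all genes were 61.3% above 0 and 7.54% with saline replicate 1 lowest. Among further envelope and cornification genes 18 of 21 were higher and saline replicate 1 was lowest in 15, and among proteases and their inhibitors 9 of 12 were higher and it was lowest in 9. Among other desmosome genes saline replicate 1 was lowest in 3 of 8, above the share over all genes. Among basal adhesion genes it was lowest in 1 of 10, near that share. Of the genes with the smallest p, Lce1m, a late envelope protein, measured 1.67, 9.52 and 4.28 FPKM in saline and 21.2, 17.4 and 11.3 FPKM in Riclin, with no overlap (log2 fold change 1.69, SE 0.459, limma adjusted p = 0.699). Zfp750, a transcription factor of terminal differentiation, measured 1.98, 2.77 and 2.23 FPKM in saline and 3.64, 3.33 and 3.71 FPKM in Riclin (log2 fold change 0.46, SE 0.117, limma adjusted p = 0.691). Krt7, a keratin of simple epithelium, had a lower mean in Riclin, at 55.2, 46.7 and 91.7 FPKM in saline and 25.4, 42.9 and 18.1 FPKM in Riclin (log2 fold change -1.16, limma adjusted p = 0.723), as did the surface protein gene Ly6g6c (-0.61).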

How the data were processed

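RNA of mouse stomach was sequenced in 3 saline and 3 Riclin libraries. Groups come from the treatment labels and replicate numbers from the titles. Nothing in the labels states that libraries are separate animals; p-values therefore measure spread between libraries only, which may be technical. Per the labels' protocols, TRIzol was used for extraction and a VAHTS Universal V6 kit for the libraries. Bowtie2 and the build mm10 appear in the submitters' processing notes without a stated role. The sources used here do not name a counting tool, an annotation or a strand setting. FPKM values for 23550 symbols were deposited by the authors.

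The 40 genes and the companion and marker lists were chosen with earlier results of these data known. All 40 genes are named. Of the companions, those with the 4 highest means or the 4 smallest unadjusted p-values qualified for naming; others were named after their values were seen. Whole reads were recovered from the deposited FPKM for 23549 genes within 1e-06 reads, by finding the gene length that makes all 6 values whole, and 13667 genes had at least 20 reads in every library. Genes with FPKM of at least 1 in at least 3 libraries were tested by limma 3.58.1 in R 4.3.3, with an intensity trend, on log2(FPKM + 1), which understates fold changes of low genes. P-values were two-sided and adjusted by the Benjamini-Hochberg method at 0.05. An exact test of 3 against 3 libraries cannot go under p = 0.1, so none was run. The fit was tested on simulated data. Positions are from GENCODE M21 and promoter sequences from RefSeq, both on GRCm38; protein sequences were not used here. Alternatives were no filter, a minimum FPKM of 5, a pseudocount of 0.1, 3 rescalings, a robust prior, a replicate block, each library left out, saline replicate 1 and Riclin replicate 3 left out together, and voom on recovered reads. The counts of genes at an unadjusted p, past a log2 fold change of 1 and without overlap were added after the data were seen.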

Additional observations from a re-analysis of the deposited data

How the results depend on the processing

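The median log2 fold change of the squamous genes stayed above 0 in all alternatives run, from 0.27 without saline replicate 1 and Riclin replicate 3 together to 1.03 without saline replicate 2. Voom on recovered reads gave 0.94. Genes past the adjusted threshold numbered 0, or 2 with a robust prior, and 0 to 1 with 1 library left out, the 1 without saline replicate 2. Genes of the set at an unadjusted p under 0.05 numbered 10 of 34, but 5 of 40 without a filter (5.20% of all genes tested), 5 of 24 at FPKM 5 (5.44%), 5 of 34 under median-of-ratios (7.94%) and upper-quartile scaling (7.70%), 6 with a robust prior (5.74%), 4 with acinar genes removed (7.57%) and 4 without saline replicate 1 and Riclin replicate 3 together (6.49%). With 1 library left out they numbered 4 to 23: 4 without Riclin replicate 2 (4.84%), 5 without saline replicate 1 (7.16%) and 23 without saline replicate 2 (6.44%). Genes with a log2 fold change of at least 1 numbered 9, or 14 with a pseudocount of 0.1 (1.11%), 14 by voom (1.26%) and 0 without saline replicate 1 and Riclin replicate 3 (0.203%). With 1 library left out they numbered 0 to 19: 0 without saline replicate 1 (0.311%), 6 without Riclin replicate 2 or 3 (0.560% and 0.509%) and 19 without saline replicate 2 (1.02%). Genes without overlap numbered 5 of 34, or 8 without saline replicate 1 and Riclin replicate 3, a share of 23.5% that is under the 37.7% of all genes. They numbered 5 to 24 with 1 library left out: 5 without saline replicate 1 (14.7%, under the 26.6% of all genes), 8 without Riclin replicate 3 (21.1% of all genes), 15 without Riclin replicate 4 (20.1%) and 24 without saline replicate 2 (20.4%). The difference in layer ratio of -0.25 was 0.21 with medians, 0.14 without Sprr1a and the genes of simple epithelium, and -0.45 to -0.12 with 1 library left out. Of 534 values of single genes under alternatives, 15 changed sign. Without saline replicate 1 these were Krt4 (-0.19), Pkp3 (0.070), Perp (-0.016) and Gsdmc (-0.049). Without saline replicate 1 and Riclin replicate 3 they were Krt4 (-0.45), Pkp3 (0.044) and Perp (-0.083). Perp was also -0.0037 with acinar genes removed, -0.01 without Riclin replicate 2 and -0.018 without Riclin replicate 3. Sfn was 0.069 without Riclin replicate 2 and Serpinb5 0.019 without Riclin replicate 4. With 1 library left out, the ranges were -0.19 to 1.20 for Krt4, -0.16 to 0.070 for Pkp3, -0.018 to 0.18 for Perp, -0.16 to 0.069 for Sfn and -0.049 to 0.82 for Gsdmc. The cause was not tested, beyond the library that each fit leaves out. None of the 40 passed the adjusted threshold in any alternative, the smallest adjusted p being 0.229. Replicate numbers 2 and 4 occur in both groups, but nothing says that they pair the samples. Deviations from the group means correlated at 0.222 for number 2 and 0.0109 for number 4. With the replicate block, which takes saline replicate 1 and Riclin replicate 3 out of the comparison, the median was 0.27, 0 genes passed, 8 of the set were at an unadjusted p under 0.05 (5.52% of all genes), 0 reached a log2 fold change of 1 (0.222%), and Krt4 (-0.45), Pkp3 (0.044) and Perp (-0.083) changed sign. Depth limits Sprr1b, Dsg1a and Ivl, whose counts reached at most 56 reads.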

Other observations

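Some of the companion genes were abundant and did not have the low saline replicate 1. All were chosen by level or after their values were seen. Gsdma2, a relative of Gsdma, measured 711, 575 and 352 FPKM in saline and 346, 327 and 330 FPKM in Riclin, with its highest value in saline replicate 1 (log2 fold change -0.65, SE 0.256, limma adjusted p = 0.806). Gsdma measured at most 6.05 FPKM. Psca, a surface antigen gene with the highest mean of the companions, measured 7432, 5298 and 3974 FPKM in saline and 5230, 7855 and 4911 FPKM in Riclin. Sptssb, a subunit regulator of sphingolipid synthesis, measured 407, 285 and 302 FPKM in saline and 361, 346 and 163 FPKM in Riclin.

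Sprr2a3, a small proline-rich gene, measured 341, 1017 and 691 FPKM in saline and 685, 317 and 2260 FPKM in Riclin, and its near-identical copies Sprr2a1 and Sprr2a2 were also uneven. Sprr2a1 measured 58.8, 155 and 1.83 FPKM in saline and 44.0, 14.8 and 93.7 FPKM in Riclin. The sources used here do not say how reads were split between these copies, so their levels are uncertain.

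Some genes of late differentiation, picked after their values were seen, were very low in saline replicate 1. Others were less so, such as Rptn, with the other 5 libraries at 3.81 times that library. For Sprr2a3 the ratio was 2.91, but Riclin replicate 3 was its lowest library (317 FPKM) and Riclin replicate 4 (2260 FPKM) stood far above the rest. Lor, loricrin, measured 9.91, 86.5 and 46.8 FPKM in saline and 94.7, 106 and 75.2 FPKM in Riclin, with the other 5 libraries at 8.26 times saline replicate 1. Klk7, a protease of surface cell shedding, measured 0.348, 7.03 and 3.25 FPKM in saline and 6.14, 5.64 and 4.99 FPKM in Riclin, a ratio of 15.6. The ratio was 7.62 for Lce1m, 6.39 for Casp14 and 6.27 for Spink5, a protease inhibitor. Widely expressed desmosome genes had ratios under 1, with 0.811 for Dsp, 0.876 for Jup and 0.719 for Dsg2, as did the transcription factor Klf4 at 0.807.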
